A study of Mus musculus with 391 samples.

Results

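The deposited cell table gives the type code CP-EC to 111 of 391 sequenced cells, and the description that follows is of those 111 cells. They were chosen by that code alone, matched to the columns of the count table by cell name. The sample labels give 111 endothelial cells of brain, the same number, and do not spell the code out or tie a label to a column. The other 280 cells carry the code MG and are labelled microglia, the resident macrophages of the brain. Both classes came from one kind of preparation, fragments of vessels taken from the brains of adult mice, and were read by Smart-seq2, a full-length single-cell RNA method. No strain, genotype, sex, treatment or animal is named for either class, so each class counts as 1 sample. No test or standard error was therefore made from cells. Comparisons of the classes compare these 2 sets of cells and not animals.

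Endothelial cells line blood vessels. In most of the brain they form the blood-brain barrier, with tight junctions, little vesicle traffic and many dedicated transporters, a state held by Wnt signalling through beta-catenin. In a few brain sites, among them the choroid plexus and the circumventricular organs, capillaries are instead fenestrated: their walls carry pores spanned by diaphragms that are built from the protein Plvap, and VEGF from the surrounding tissue maintains them.

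The 111 cells held 21361227 reads assigned to genes. A cell had a median of 174345 reads (range 83954 to 602175) and 2684 genes with a read (1626 to 4750), against medians of 146506 reads and 2690 genes in the microglia class. Column names begin with 1 of 4 prefixes followed by a code that reads as a well, and the cells of a prefix are called a plate here (A, B, C and D), a reading of the names that the labels do not state. Of the 111 cells 7 were on plate A and 10 on plate B, which also held all microglia-class cells, and 50 were on plate C and 44 on plate D. The median of genes per cell was 2535, 2635, 3108 and 2397 on plates A to D. No pair of cells had identical counts. Levels are in CPM, the read count of a gene scaled to a common total of gene reads, pooled over cells unless a cell is named. RPKM divides CPM by the length of the gene's exons in kilobases, and levels of different genes are ranked by RPKM alone.

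Reads per exon base had an upper bound in these data, and the counts of some abundant genes rose less than in proportion to depth. Among 6665 genes with over 300 reads in some cell, none exceeded 1.57 reads per exon base in any cell. Rn18s-rs5, a ribosomal RNA repeat, had 1469 reads in its lowest CP-EC cell, 1824 in the median cell and 1929 in the highest, a span of 1.31-fold, while total reads spanned 7.17-fold. Plvap went from 67 to 2707 reads per cell, a mean of 0.759 and a maximum of 1.36 reads per exon base. Across cells its CPM was lower where depth was higher, with r = -0.71 on plate C (n = 50) and -0.60 on plate D (n = 44) between log2(CPM + 1) and depth. Igfbp7, a secreted binding protein of the insulin-like growth factor (IGF) family, showed the same, with 280 to 1287 reads and r = -0.57 and -0.71. Esm1 did not, with r = 0.04 and 0.09. Over 16 genes with a mean of 0.2 or more reads per exon base the median r was -0.18 and -0.40. For 147 genes from 0.05 to 0.2 it was 0.12 and 0.11. Whether duplicate reads had been removed is not given in the sources used here, and the part of such a step in the values below was not tested. This bound was noticed after values were seen.

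**Figure D1:**
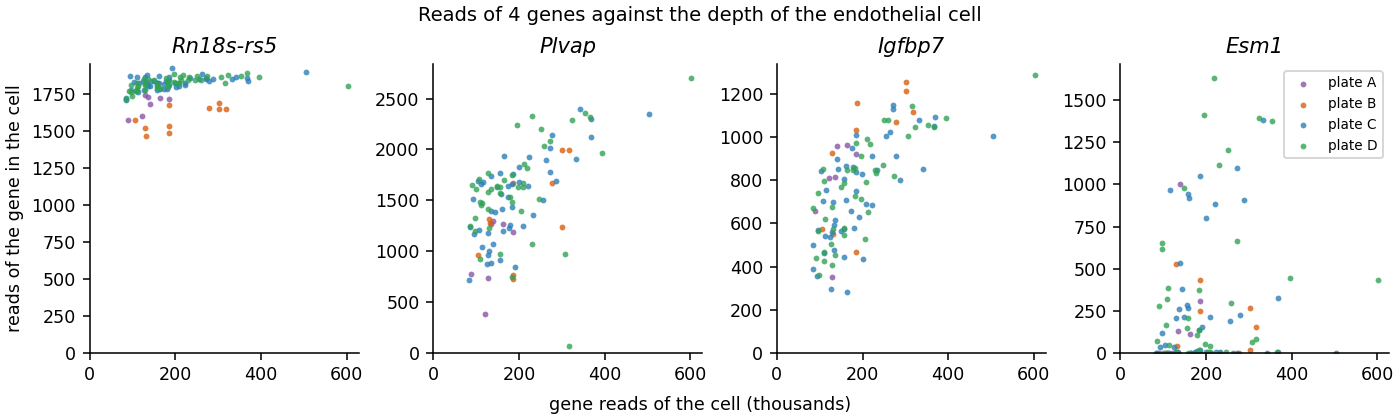
Reads of 4 genes in each of the 111 CP-EC cells (y axis, reads, from 0) against the gene reads of that cell (x axis, kiloreads), 1 point per cell, coloured by plate. Rn18s-rs5 stays between 1469 and 1929 reads at all depths, Plvap and Igfbp7 rise less than in proportion to depth, and Esm1 has cells near 0 at every depth.

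In 3 cells, levels stood apart from those of the others. One cell of plate D had a summed level of 2853 CPM over 8 genes of fenestrated endothelium, against 10585 in the next lowest cell. In it Plvap was at 212 CPM, Igfbp3 at 6.33 and Kdr at 22.2. The arterial genes Gja4 and Alpl, a connexin and an alkaline phosphatase, were at 2575 and 1634 CPM, and Bmx and Gja5, also arterial, at 0. Cells other than the 3 reached 2945 CPM for Gja4 and 3716 for Alpl, so these levels did not stand apart. Mgp and Fbln5, matrix proteins of larger vessels, were at 1495 and 573 CPM in it, and the smooth muscle gene Acta2 at 1419. Another cell of plate D had 13062 CPM over 7 smooth muscle genes, against 1419 in the next, with smooth muscle actin (Acta2) at 6601, Myl9 at 3182 and Myh11 at 1033 CPM. It also held Plvap at 3182 and Igfbp3 at 4707 CPM and had 3848 genes with a read. In a cell of plate C, 15 microglia genes summed to 2642 CPM, against 1058 in the next, with Csf1r at 1535, Tyrobp at 616 and Cx3cr1 at 397 beside Plvap at 4417. The choice of these cells followed from their values. They stayed in the pooled levels, and pooled levels without them are given where they matter.

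Levels are given first for 7 markers of endothelium and of its fenestrated form. The markers had been fixed for this class, so their levels are not a test of the label. Plvap, the diaphragm protein, was read in all 111 cells, from 212 CPM in the lowest cell through a median of 8443 to 18194 in the highest, and pooled it stood at 7837 CPM (7799.6 to 7875, exact 95% Poisson interval). Intervals here cover counting error only, since the reads carry no molecular identifiers and copies made by PCR are not independent molecules. Without the 3 cells above, no cell was below 3183 CPM. By plate Plvap stood at 7185, 6418, 8003 and 8072 CPM. In microglia-class cells it was at 1.52 CPM and was read in 16.8% of cells, so that the share of cells with a read in a class that should lack the gene was well above 0 at this depth.

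Igfbp3, which binds insulin-like growth factors outside the cell, spanned 3.60 to 19226 CPM per cell with a median of 4657 and was read in every cell. Eng, a co-receptor for BMP9 on endothelium, ran from 48.4 through 5299.8 to 15005 CPM. Emcn, a sialomucin of the endothelial surface, ran from 83.4 through 3219.6 to 6806 CPM. All 3 were thus read in each cell, and each had a few cells far below its median. The VEGF receptors Flt1, a decoy, and Kdr, the main signalling receptor, had medians of 3353 and 2953 CPM and maxima of 7655 and 7928, and each was at 0 in 1 cell of plate C, not the same one. Esm1, a proteoglycan secreted by endothelium that responds to VEGF, differed from the other markers: it was at 0 in 12 cells, had a median of 435 CPM and reached 8327. A read of Esm1 was present in 89.2% of cells (81.9 to 94.3, exact Clopper-Pearson interval), in 80.2% after each cell was thinned to 80000 reads, and in 1.79% of microglia-class cells. At 5 reads or more the share was 64.9%.

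**Figure D2:**
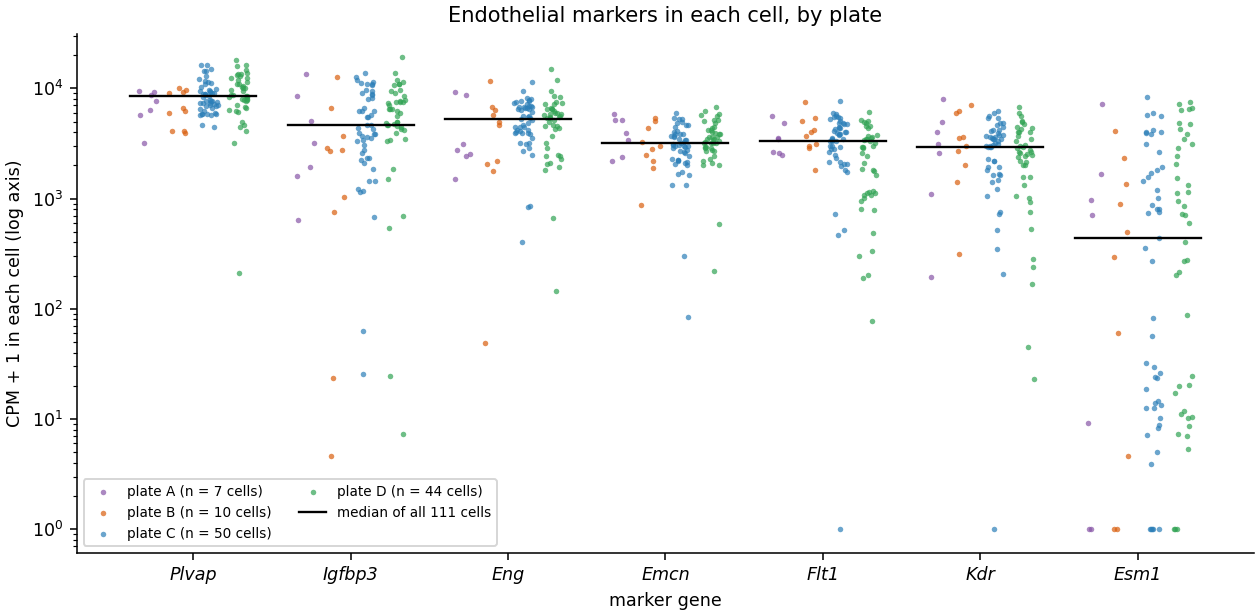
CPM + 1 of the 7 markers (x axis) in each of the 111 CP-EC cells (y axis, log scale), 1 point per cell, coloured and set side by side by plate. Black lines are medians over all cells. Plvap is at 3182 CPM or more in every cell but the one at 212, while Esm1 spreads from 0 on every plate to maxima of 7147, 4074, 8327 and 7470.2 CPM on plates A to D, around medians of 706, 393, 313 and 655.

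The 250 bases before the RefSeq start of the most and one of the least variable of these markers are shown to set their proximal sequences side by side (mouse build GRCm38.p6, gene strand, 5′ to 3′). Capitals mark TATAAA, the TATA box, and AGGAAG, a core of sites bound by ETS factors, on either strand. Esm1 is at chr13:113209409-113209658 on the plus strand and Emcn at chr3:137340828-137341077 on the plus strand.
Esm1: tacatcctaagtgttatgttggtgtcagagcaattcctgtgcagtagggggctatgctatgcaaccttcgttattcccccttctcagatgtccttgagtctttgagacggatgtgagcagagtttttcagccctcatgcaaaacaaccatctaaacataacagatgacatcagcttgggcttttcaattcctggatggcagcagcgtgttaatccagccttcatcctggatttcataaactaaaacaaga
Emcn: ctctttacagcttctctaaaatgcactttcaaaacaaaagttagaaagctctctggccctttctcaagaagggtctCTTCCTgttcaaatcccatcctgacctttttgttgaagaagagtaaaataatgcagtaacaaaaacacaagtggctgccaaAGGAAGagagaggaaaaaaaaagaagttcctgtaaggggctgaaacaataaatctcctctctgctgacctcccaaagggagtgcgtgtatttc
The Esm1 window held neither motif, and the Emcn window held AGGAAG 2 times and no TATAAA. Of all 27025 promoter windows of this length, 29.2% held AGGAAG and 13.0% TATAAA. Of the 6 markers with an entry, all but Plvap, 3 held AGGAAG (Emcn, Eng and Flt1) and 1 held TATAAA (Flt1). A match of letters is a description and not a site in use.

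The gene program was set against the microglia class. A gene was called when log2(CPM + 1) differed by 2 or more, which is 4-fold, and was measured when it reached 1 CPM in either class, so a gene low in both is not counted. Of 14989 genes measured, 11.7% were at least 4-fold higher in CP-EC cells and 19.9% at least 4-fold lower, and the median difference over all genes was -0.36. Since 94 of the 111 cells came from plates without microglia, the values were also taken within plates A and B, where 10.9% and 11.5% of genes were 4-fold higher, 46.5% and 48.4% were 4-fold lower and the medians over all genes were -1.73 and -1.87. All 7 markers were among the genes called higher. Their pooled folds over the microglia class were 5171 for Plvap, 5314 for Igfbp3, 41.9 for Eng, 976 for Emcn, 404 for Flt1, 599 for Kdr and 9734 for Esm1, the last with an interval of 4724 to 24213 since the gene had few reads in microglia. A ratio to microglia does not separate one kind of endothelium from another, so the levels within the 111 cells carry the description that follows.

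By RPKM, the most abundant of the genes called higher were Plvap at 3944 and Igfbp7 at 3319, followed by Ly6a, a surface antigen of mouse endothelium, at 1775, Rgcc, a regulator of the cell cycle, at 1693, and Igfbp3 at 1644. Plpp1 and Plpp3, phosphatases that act on bioactive lipids at the cell surface, stood at 1459 and 1145 RPKM, with Eng at 1190.5 between them. Sox18, a transcription factor of endothelium, was at 1036 RPKM, Pltp, a phospholipid transfer protein, at 990.5, Crip2 at 862.5 and Cd300lg, a mucin-like surface receptor of capillary endothelium, at 835. Cd300lg was read in 106 cells and each of the other genes of these 12 in 110 or 111. Plvap and Igfbp7, at the top of this order, had maxima of 1.36 and 1.06 reads per exon base, near the bound described above.

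All 8 genes of fenestrated endothelium were 4-fold higher, with a median log2 difference of 8.82 (7 of 8 within plate A and 8 of 8 within plate B). In the per-cell sums the list ran from 2853 CPM through 26890 to 49636, and the microglia class had a median of 141. Cd24a, a small glycosylated surface protein, stood at 2119 CPM and was read in 110 cells, and Nrp1, a co-receptor of VEGF and semaphorins, at 2652. Exoc3l2, a gene related to the exocyst, had reads in fewer cells, 73, with a median of 19.9 and a maximum of 4532 CPM. This list and the others were chosen with earlier results of these data known, and list members named below beyond those the rule for named genes takes were picked with their values in view.

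Of 9 measured genes of caveolae, the flask-shaped pits of the plasma membrane, 6 were 4-fold higher and 0 lower (median 6.49). Cav1, the main coat protein, had a median of 886 CPM per cell and Cavin2, which shapes the pit, 1293, each with cells at 0. Ehd2, an ATPase at the neck of caveolae, stood at 880.3 CPM and differed by plate, with 262, 205, 1240 and 722 CPM on plates A to D. The muscle forms Cav3 and Cavin4 had no read in any CP-EC cell. A gene with no read in the 111 cells is below 0.140 CPM, the level of 3 reads.

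Among VEGF receptors and ligands, 6 of 8 measured genes were 4-fold higher (median 3.98) and 1 was lower. Beside Flt1 and Kdr, Flt4, the receptor of VEGF-C, was at 553 CPM and was read in 81 cells, with a median of 136 and a maximum of 5478. Nrp2, a co-receptor of VEGF-C, was at 117 CPM in 38 cells. Of the ligands, Vegfa stood at 13.0 CPM in 3 cells, Vegfb, the gene that was lower than in microglia, at 9.97, and Pgf at 0.140, the level of 3 reads. Of the angiopoietin system, 4 of 5 measured genes were 4-fold higher (median 8.06). Tie1, an orphan receptor tyrosine kinase, was at 2352 CPM, its partner Tek, the receptor of angiopoietins, at 659.8, and Ptprb, the phosphatase that acts on Tek, at 1534. Angpt2, the ligand that endothelium itself stores, was read in 37 cells, at 179 CPM pooled and up to 2058 in a cell, while Angpt1, which pericytes make, had no read.

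Notch genes, which set arterial fate and restrain sprouting, were 4-fold higher in 10 of 13 cases and lower in 2 (median 3.39). The receptors Notch1 and Notch4 stood at 865 and 514 CPM, and Notch2 at 0.187. The ligand Dll4 ran from 0 through 8.64 to 6260.2 CPM per cell, and was read in 71 cells. Jag2 was at 215 CPM in 52 cells, and Jag1 at 18.9 CPM in 8 cells. Hes1, a target of Notch, was at 386 CPM.

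Genes that mark segments of the vascular tree were unequal within their lists. Of 13 measured arterial genes 12 were 4-fold higher (median 3.95; 6 of 9 within plate A and 6 of 11 within plate B). Alpl stood at 675 CPM in 77 cells, Gja4 at 239 in 38 cells and Efnb2, an ephrin of arteries, at 60.9 in 42 cells, while Gkn3, Bmx and Gja5, markers of larger arteries in brain, were at 0.796, 0.375 and 0.234 CPM. Of the 15 listed arterial genes Gkn3 and Bmx were under 1 CPM in both classes and so were not measured, and Gja5 was measured through 2.55 CPM in the microglia class. The arterial sum spanned 0 to 8230 CPM per cell with a median of 1279. Of 10 measured venous genes 4 were 4-fold higher and 1 lower (median 0.22). Ephb4, the receptor of ephrin-B2 on veins, was at 374 CPM in 72 cells. Nr2f2, a venous transcription factor, was at 9.69 CPM in 9 cells. Vwf, von Willebrand factor, was at 1.31 CPM, Ackr1, a chemokine receptor of venules, at 0.140, and Selp, an adhesion receptor for leukocytes, at 22.1 in 3 cells of plate C. The venous sum had a median of 287 CPM and a range of 0 to 3379.

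Some pairs of an arterial or Notch gene and a venous gene were also counted in single cells. At 10 or more reads, Dll4 and Ephb4 were together in 21 cells, Dll4 was alone in 22, Ephb4 alone in 32, and neither was present in 36. Gja4 and Ephb4 were together in 13 cells, against 10 with Gja4 alone and 40 with Ephb4 alone. Sox17, an arterial transcription factor, reached this level in 18 cells and Nr2f2 in 4, with 0 cells shared and 89 with neither. With so few cells for Nr2f2, unrelated genes could also share 0 cells, so this pair does not show exclusion. The overlap that unrelated genes would have was not worked out for these pairs. Their counts therefore do not tell whether the genes of a pair went together or apart. These pairs were chosen with values known, and a cell without 10 reads of a gene may still hold its RNA.

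Of 12 measured genes listed for brain capillaries 5 were 4-fold higher and 0 lower (median 1.43). Those 5 were Rgcc, Cxcl12, Itm2a, Car4 and Ly6c1. Ly6c1, a surface antigen of capillary endothelium, was read in every cell, from 84.8 through 1404 to 3828 CPM. Car4, a carbonic anhydrase, had a median of 424.5 CPM and Itm2a, a membrane protein of brain endothelium, 625.5. Cxcl12, a chemokine, had a low median of 121 CPM for its pooled 828, with 1648 and 1647 CPM on plates A and B and 672 and 709.6 on plates C and D. The tip cell list, genes of sprouting endothelium, had 12 of 15 measured genes 4-fold higher (median 5.06). Trp53i11, one of its members, was at 882 CPM and Mcam, an adhesion protein, at 700.0. Apln, a peptide ligand of sprouting vessels, was read in 7 cells and Aplnr, its receptor, in 15.

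Of 26 transporters of the blood-brain barrier, 6 were 4-fold higher, 3 lower and 17 between, with a median of 0.10 against -0.36 for all genes. Within plates A and B, 7 of 26 and 8 of 25 were higher, with medians of 0.49 and 1.09 against -1.73 and -1.87. The glucose transporter Slc2a1 was read in 104 cells but had a median of 34.4 CPM, with a lowest cell at 0 and a highest at 2215. It stood at 37.4, 491, 188 and 118 CPM on plates A to D. Cells with 10 reads or more of it numbered 30 of 111. Abcg2, an efflux pump, was at 459.5 CPM in 81 cells and Insr, the insulin receptor, at 479 CPM in 71 cells with a median of 7.86. The taurine transporter gene Slc6a6 stood at 2588, 1697, 820.0 and 525 CPM on plates A to D. Abcb1a, the efflux pump P-glycoprotein, was at 40.2 CPM in 55 cells. Mfsd2a, a lysolipid transporter that limits transcytosis in the barrier, was at 2.53 CPM in 37 cells.

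Junction genes were 4-fold higher in 15 of 22 cases and lower in 3 (median 2.95). Per length, Esam, an adhesion molecule of endothelial tight junctions, stood at 764 RPKM, Pecam1 at 417, Jup, plakoglobin, at 316, and Cldn5 at 185. The median cell held Pecam1 at 2395, Esam at 2148 and Jup at 2036 CPM. Cdh5, VE-cadherin, was at 514 CPM in 106 cells. Of the tight junction genes, Cldn5, the main claudin of brain endothelium, was read in every cell but at 14.8 through 208 to 1675 CPM, and at 66.5, 186, 403 and 151 CPM on plates A to D. Its share of microglia-class cells with a read was 92.1%, at 24.5 CPM. Jam3 stood at 639 CPM. Tjp1 and Ocln, also of tight junctions, were at 86.8 and 19.0 CPM, and Cldn1 and Cldn3, claudins of epithelia, were at 0.0468 and 0 CPM, below the level of 3 reads.

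Parts of the Wnt receptor complex that maintains the barrier were read: Tspan12, a tetraspanin partner of the receptor, at 381 CPM in 80 cells, Fzd4, the receptor, at 362 in 70, and Lrp5, its co-receptor, at 177 in 59. Ctnnb1, beta-catenin, had a median of 1139.5 CPM. Of 21 measured genes of this list 13 were 4-fold higher and 2 lower (median 2.81). Of genes that the pathway induces, Lef1 was at 1.22 CPM and Axin2 at 2.29, and Apcdd1 at 19.7, with 3467 CPM in 1 cell of plate D. Sox17 was at 173 CPM and Foxf2, a factor of brain vessels, at 98.4.

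Among 30 measured transcription factors of endothelium, 18 were 4-fold higher and 2 lower (median 2.64). Epas1, the hypoxia-inducible factor of endothelium, had a median of 1832 CPM and was read in 110 cells, and Sox18 a median of 1501. Meox1, a homeobox factor, stood at 527 CPM in 75 cells, while its paralog Meox2 had no read. Gata2 was at 421 CPM and Sox7 at 294. Klf2, which shear stress induces, and Mef2c, which lies upstream of it, were at 739 and 549 CPM, against 845 and 596 in the microglia class.

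Receptors and targets of TGF-beta and BMP signalling were mixed, with 12 of 24 measured genes 4-fold higher and 2 lower (median 1.73). Within plate A, 6 of 23 were higher and 9 lower, with a median of -0.13, where 46.5% of all genes were lower. Within plate B, 10 of 22 were higher and 7 lower, with a median of 0.96, where 48.4% of all genes were lower. Acvrl1, the receptor of BMP9 and BMP10 that works with Eng, had a median of 1257 CPM, and its targets Id3 and Id1 had medians of 1204 and 382. Bmp6, a ligand, was read in 41 cells, at 208 CPM pooled against 0.0210 in the microglia class. Tgfbr2, the type II receptor of TGF-beta, ran from 0 through 174 to 8899 CPM, and Tgfbr1 was at 18.7 CPM.

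The basement membrane list was 4-fold higher in 20 of 22 measured genes and lower in 0 (median 5.54; 15 of 20 and 17 of 19 within plates A and B). Sparc, a collagen-binding protein, was read in each cell at 679 CPM or more, with a median of 3467. Hspg2, the proteoglycan perlecan, had a median of 1789.8 and a maximum of 12120.2 CPM, and differed by plate, with 327, 1024, 2871 and 2242 CPM on plates A to D. The collagens Col4a1 and Col4a2 had medians of 1217 and 1215 CPM. Fn1, fibronectin, was read in 51 cells and reached 2663 CPM in 1 of them.

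Surface, tone and metabolic genes completed the program. Of sialomucins and leukocyte adhesion genes, 6 of 10 were 4-fold higher and 1 lower (median 3.42): Podxl, Cd34 and Icam2 stood at 1230.1, 1576 and 725 CPM. Icam1 and Vcam1, which inflammation induces, were at 111 and 41.9 CPM, and Sele had no read. Genes of vascular tone were 4-fold higher in 13 of 18 cases and lower in 1 (median 3.56). Ramp2 and Ramp3, which pair with the adrenomedullin receptor, stood at 1528 and 950.1 CPM, Ece1, the endothelin-converting enzyme, at 1483, and Nos3, the endothelial nitric oxide synthase, at 316 CPM in 76 cells. Thbd, thrombomodulin, which curbs coagulation, stood at 1449 CPM, and Gpihbp1, which carries lipoprotein lipase to the capillary lumen, at 834.5 CPM in 90 cells. Scarb1, a receptor of high-density lipoprotein, was at 1669 CPM. Piezo2, a mechanically gated channel, was at 311 CPM in 60 cells and at 0.0210 in the microglia class. Semaphorin and plexin genes were 4-fold higher in 9 of 12 cases, with Sema3f at 282 CPM in 78 cells. The coagulation list was 4-fold higher in 5 of 11 genes and lower in 1, the lipid list in 6 of 11 and 2, and the insulin and IGF list in 4 of 12 and 3. Over all genes 11.7% were higher and 19.9% lower. Mechanosensors and channels were higher in 3 of 14 and lower in 2. Within plate A 2 of 14 were higher and 9 lower, and within plate B 2 of 13 were higher and 4 lower. Of all genes 46.5% and 48.4% were lower on these plates.

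Lists of functions that most cells share were counted in the same way, beside 11.7% of all genes higher and 19.9% lower. Of 23 nuclear respiratory chain genes 0 were 4-fold apart, as were 0 of 8 measured mitochondrial genome genes, and the MHC class I list had 0 higher and 1 lower of 15. Within plates A and B, 1 and 3 of the 23 respiratory chain genes and 3 and 3 of the 15 MHC class I genes were lower. The heat shock list had 1 higher and 1 lower of 12, with Hspb1, a small heat shock protein, at 451 CPM against 29.2. Of 24 interferon-stimulated genes 5 were higher and 3 lower. Within plate A 2 of 24 were higher and 9 lower, and within plate B 3 of 23 were higher and 8 lower, where 46.5% and 48.4% of all genes were lower. Of 22 genes of hypoxia and glycolysis 3 were higher and 2 lower, with Ndrg1, a gene induced by hypoxia, at 717 CPM against 33.4. Cell cycle genes were 4-fold lower in 9 of 19 cases and higher in 0. Mki67, Ccnb1, Ccnb2 and Ccna2 had no read in CP-EC cells, and Top2a 1 read, or 0.0468 CPM. Ccnd1, a cyclin of early G1 that many resting cells hold, was at 631 CPM in 74 cells. Of 5 mitochondrial genome genes, mt-Co2 and mt-Co3 among them, no read was counted in either class, so they are listed at 0 and no level is given.

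Variation from cell to cell was measured within plates C and D. For each gene at 20 CPM or more on both, the squared coefficient of variation of its CPM, less the part that Poisson counting gives, was divided by the median of the 101 genes nearest in mean, so that 1 is the trend at that level. A gene was called uneven at 2 or more on both plates and even at 0.5 or less on both. Of 5426 genes, 2.23% (121) were uneven and 7.19% (390) even. The plates shared 27.6% and 24.6% of the genes each called uneven, and 61.8% and 68.1% of those each called even. Of the 121 uneven genes 74 were read in under 20% of cells, and 14 in 50% or more. An uneven gene had a median of 39.4% of its summed per-cell CPM in 1 cell, against 7.01% for an even gene and 16.0% over all genes. Exon length went along with the call, with medians of 5952, 2254 and 4538 bases.

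The most uneven genes were mostly of that sparse kind. Prkdc, a DNA repair kinase, was read in 13 cells, with 40.0% of its CPM in 1 of them, Uhrf1bp1 in 17 cells, Pogz, a chromatin protein, in 18 and Gca in 2. Aqp1, a water channel, was read in 17 cells, all on plates C and D, at up to 3200.2 CPM, and had no read in the microglia class. Such genes differ from cell to cell through which cells have reads at all. The next sentences therefore keep to the 14 uneven genes with a read in 50% of cells or more, a subset set after the values were seen.

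Esm1 was the most uneven of the 14 by the smaller of its 2 plate values, at 3.15 and 3.49 times the trend on plates C and D. Tgfbr2 stood at 2.74 and 3.15, Nr4a1, an orphan nuclear receptor and immediate early gene, at 5.09 and 2.70, Dll4 at 2.03 and 2.77 and Fos at 2.44 and 2.24. The others were Vcl, Tspan18, Ablim1, Surf4, Nisch, Cpe, Copa, Lmna and Plod1, of the cytoskeleton, the secretory pathway, the nuclear lamina and collagen processing among other roles. When the variance of log2(CPM + 1) took the place of the squared coefficient of variation, 3 genes were uneven: Esm1 (2.28 and 2.78), Fos (2.31 and 2.14) and Tspan9, a tetraspanin (2.95 and 2.70). Esm1 and Fos were thus the genes uneven by both measures. Thinning to 80000 reads left Esm1 at 3.09 and 3.45.

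Among the markers, Plvap (0.25 and 0.33) and Emcn (0.37 and 0.30) were even, Eng was at 0.38 and 0.60, Flt1 at 0.43 and 0.91, Kdr at 0.62 and 0.81, and Igfbp3 at 1.06 and 0.76. Cldn5 was even as well, at 0.29 and 0.37, and so were Igfbp7 (0.22 and 0.21), Ly6a (0.26 and 0.28), Ly6c1 (0.29 and 0.28) and Id3 (0.39 and 0.39). The even call was more frequent among widely read genes. It was made for 20.9% of genes read in 50% of cells or more, and for 117 of 380 read in 80% or more. By list, 13 of 20 tested nuclear respiratory chain genes, 5 of 7 of the mitochondrial genome, 5 of 11 heat shock genes and 4 of 11 MHC class I genes were even. Of 11 barrier transporters 0 were even, of 9 caveolar genes 1 (Cavin3), and of 9 tip cell genes 0, beside 7.19% of all genes, and 2 tip cell genes were uneven, Esm1 and Dll4. The even call went with reads per exon base: 6.65% of genes under 0.05 were even, 18.4% of the 147 genes from 0.05 to 0.2, and 75% of the 16 genes at 0.2 or more, among them Plvap and Igfbp7. Emcn was at 0.115 and Cldn5 at 0.0357. The part of the upper bound on reads in the evenness of Plvap and Igfbp7 was not tested. The 10 most even genes were led by Ppia, Slc34a2 and Ptma. Their counts may be uncertain where reads are shared with similar copies elsewhere in the genome, which was not tested. Slc34a2 also had r with depth of -0.91 and -0.73 on plates C and D.

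**Figure D3:**
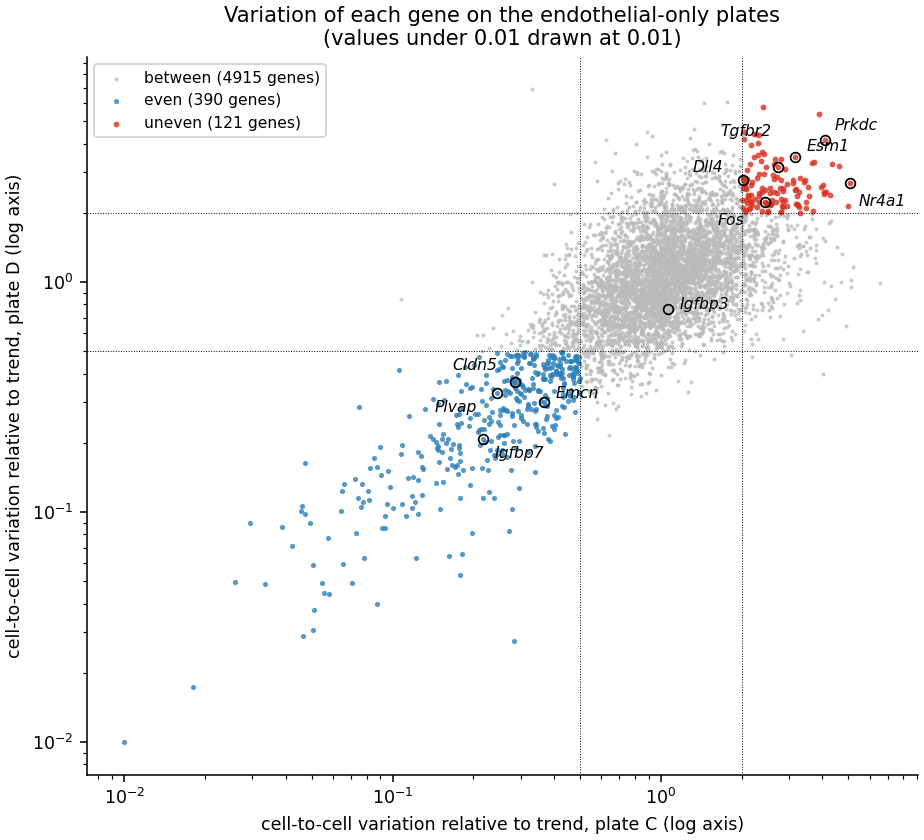
Cell-to-cell variation of 5426 genes relative to the trend on plate C (x axis) and plate D (y axis), both log scales, 1 point per gene. Dotted lines mark 0.5 and 2, red points are the 121 uneven and blue points the 390 even genes, and circles mark named genes. Esm1, Tgfbr2, Nr4a1, Dll4 and Fos lie in the upper right, and Plvap, Emcn, Cldn5 and Igfbp7 in the lower left.

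Correlations across cells were taken within plate C (n = 50) and plate D (n = 44), on log2(CPM + 1), as descriptions. The cells of a plate differ in depth, so the correlation with depth stands beside them. For Esm1 the 3 genes with the highest smaller r were Bmp6 (0.42 on plate C and 0.43 on plate D), Plk2, a polo-like kinase (0.36 and 0.40), and Gng2, a G protein subunit (0.39 and 0.36). By Spearman's rho of CPM these were 0.36 and 0.45, 0.35 and 0.35, and 0.36 and 0.27. The r of Esm1 with depth was 0.04 and 0.09, and that of Bmp6 0.29 and 0.19. With Gpihbp1 it was 0.35 and 0.33, and with Dll4 0.29 and 0.24. At 10 or more reads 35 cells had both Esm1 and Dll4, 33 had Esm1 alone, 8 had Dll4 alone and 35 had neither.

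The partners of Plvap were Rn18s-rs5 (0.71 and 0.61), Slc34a2 (0.74 and 0.46) and Eng (0.42 and 0.77). Rn18s-rs5 had an r with depth of -0.999 on both plates, Slc34a2 of -0.91 and -0.73, and Plvap itself of -0.71 and -0.60, so that depth is shared by all 3. For Eng the r with depth was -0.13 and -0.45. Spearman's rho with Plvap was 0.32 and 0.45 for Eng, 0.70 and 0.84 for Rn18s-rs5 and 0.73 and 0.61 for Slc34a2. The cell of plate D with Plvap at 212 CPM had Eng at 143, and without the 3 cells that stand apart the r of Plvap and Eng was 0.34 and 0.47. Igfbp3 went with Cd24a (0.39 and 0.45), Aldh2, a mitochondrial aldehyde dehydrogenase (0.31 and 0.43), and Ivns1abp (0.38 and 0.31), with r to depth of -0.09 and -0.28 for Igfbp3. By Spearman's rho these 3 pairs were at 0.26 and 0.19, 0.14 and 0.40, and 0.43 and 0.33. Without the 3 cells r on plate D was 0.16, 0.25 and 0.13. Slc2a1 had r of 0.26 and 0.30 with Fyco1, read in 19 cells, and of 0.38 and 0.26 with Nsmce1, read in 42, and rho of 0.23 and 0.19 and of 0.18 and 0.35. For Cldn5 the partners were Abr (0.33 and 0.32), Slc34a2 (0.30 and 0.71) and Rn18s-rs5 (0.27 and 0.62), and Cldn5 had r with depth of -0.29 and -0.62. Their rho with Cldn5 was 0.22 and 0.19, 0.25 and 0.72, and 0.20 and 0.64. Prkdc, the most uneven gene, had r of 0.61 and 0.57 with Ing3, a chromatin reader read in 19 cells, and rho of 0.29 and 0.44.

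Immediate early genes, which respond within minutes to stimulation and to tissue dissociation, included several that were read in nearly all cells, and a group of them varied together from cell to cell. Their summed level was 91.2 CPM in the lowest cell, 12653 in the median cell and 37110.1 in the highest. Fos, a subunit of the AP-1 factor, ran from 0 through 1499 to 8793 CPM and was read in 109 cells. Its partner Jun ran from 5.47 through 2319 to 8392 CPM. Dusp1, a phosphatase that ends MAP kinase signalling, ran from 0 through 848 to 6802 CPM. Of 120 pairs among the 16 tested members, 15 (12.5%) had r over 0.3 on both plates, against 0.156% of all pairs of tested genes. The median r was 0.157 and 0.154, against 0.0153 and 0.00680 for all pairs. By this count the list stood next to the mitochondrial genome (3 of 21 pairs) and the insulin and IGF list (1 of 6), and the fenestrated list had 1 of 28. The pairs of all genes were not matched to the list for level or for the share of cells with a read. The pairs of Fos included Jun (0.40 and 0.61), Junb (0.40 and 0.51), Dusp1 (0.41 and 0.49) and Zfp36, which destabilises short-lived transcripts (0.47 and 0.34). Spearman's rho with Fos was 0.39 and 0.54 for Jun, 0.37 and 0.49 for Junb and 0.43 and 0.53 for Dusp1. Fos had r with depth of 0.08 and 0.18. Nr4a1, though more uneven than Fos on plate C, was outside this group, with Btg2 as the only member at r over 0.3 on both plates (0.35 and 0.35). The levels were not higher than in microglia-class cells: 1 of 21 measured members was 4-fold higher, Ccn2, and 6 were lower. The median log2 difference was -1.24, against -0.36 for all genes. Within plates A and B, 7 and 8 of 21 were lower, where 46.5% and 48.4% of all genes were lower. There the list medians of -1.19 and -1.28 were above those of all genes, -1.73 and -1.87.

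**Figure D4:**
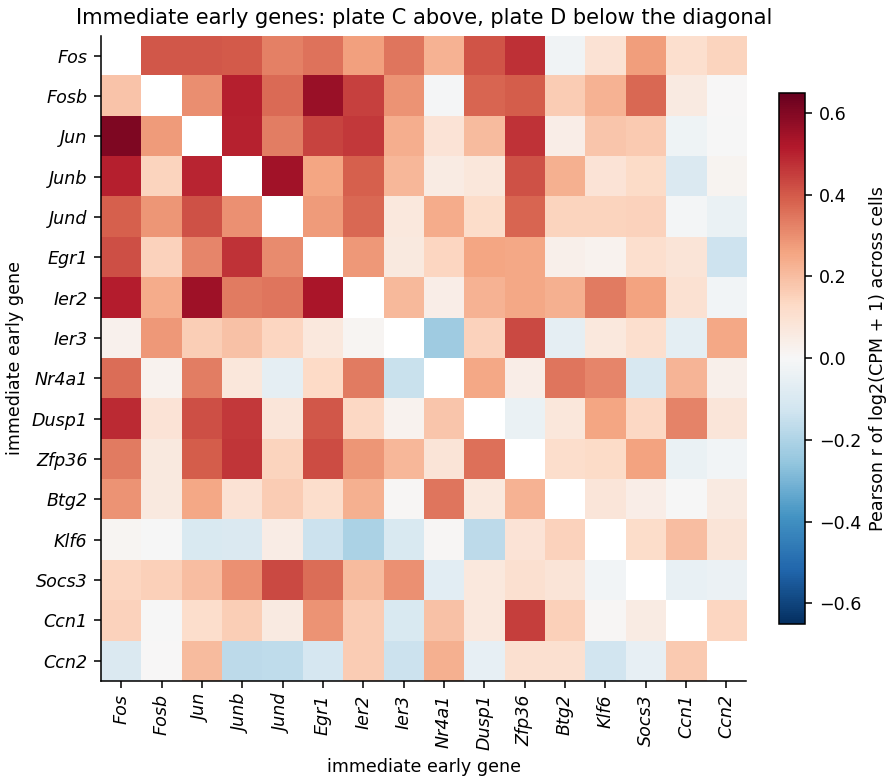
Pearson r of log2(CPM + 1) across CP-EC cells for each pair of 16 immediate early genes, with plate C (n = 50) above and plate D (n = 44) below the diagonal, on a colour scale from blue (negative) to red (positive). Fos, Jun, Junb, Jund, Egr1, Ier2, Dusp1 and Zfp36 are red in most of their pairs on both plates, with Dusp1 and Zfp36 at -0.04 on plate C as an exception, and Fos and Jun at 0.40 and 0.61.

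The proximal promoters of Fos and of Dusp1, which varied together (r = 0.41 and 0.49), are shown with TGACGT, the core of sites of CREB and ATF factors, and TATAAA in capitals (250 bases before the RefSeq start, GRCm38.p6, gene strand, 5′ to 3′, motifs on either strand). Fos is at chr12:85473640-85473889 on the plus strand and Dusp1 at chr17:26508473-26508722 on the minus strand.
Fos: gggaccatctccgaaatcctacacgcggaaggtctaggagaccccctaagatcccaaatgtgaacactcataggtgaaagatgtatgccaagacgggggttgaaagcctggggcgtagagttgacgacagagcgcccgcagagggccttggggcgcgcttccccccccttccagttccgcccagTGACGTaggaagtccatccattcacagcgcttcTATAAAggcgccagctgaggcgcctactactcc
Dusp1: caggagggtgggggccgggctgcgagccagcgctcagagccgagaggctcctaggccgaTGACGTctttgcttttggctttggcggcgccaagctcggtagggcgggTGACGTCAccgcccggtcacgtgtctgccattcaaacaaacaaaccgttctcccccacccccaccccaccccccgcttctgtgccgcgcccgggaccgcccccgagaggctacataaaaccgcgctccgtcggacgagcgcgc
The Fos window held TGACGT and TATAAA 1 time each, and the Dusp1 window held TGACGT 3 times, with 2 of the matches overlapping on opposite strands. TGACGT was present in 6.56% of all 27025 windows. Only 16 of the 22 immediate early genes had an entry, so no share over the list is given. Junb, which also varied with Fos (r = 0.40 and 0.51), had an entry that held no TGACGT. A match of letters is a description, and its relation to the variation was not tested.

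The components of the 111 cells each took a small share of the variance. With each plate centred, the first component took 2.23% of the variance over 2000 genes and had r = 0.61 with depth and 0.75 with genes per cell. Its leading genes were Lpcat1, Dysf, Rgl1, Nid1, F2r and Fto on one side, and Casp8 and Tanc1 on the other. The second component took 1.66% and had r = -0.05 with depth. Dll4, Esm1, Plk2, Igfbp4, Dchs1 and Btnl9 led its positive side, and Nfe2l2, Slc6a6, Fstl1, Iigp1, Itgb4 and Cnppd1 its negative side. Leiden clustering gave 2 clusters of 63 and 48 cells at a resolution of 0.5, and 7 clusters of 11 to 26 cells at 1.0. The clusters were left unnamed, since the markers fixed for the class do not name parts of it.

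Dll4 and Slc6a6 were picked from opposite ends of the second component. At 10 or more reads they were together in 10 cells, with 33 cells for Dll4 alone, 43 for Slc6a6 alone and 25 for neither. Igfbp4, another binding protein of insulin-like growth factors, had a median of 28.5 and a maximum of 4911 CPM per cell, at 2.36 and 1.96 times the trend. Btnl9, a butyrophilin-like surface protein, had a median of 292 and a maximum of 8154 CPM, at 1.89 and 2.99 times the trend, and stood at 0.105 CPM in the microglia class. The components were computed from these same genes and the counts were not split by plate, so they are a description alone.

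Markers of other cell types were also read in the 111 cells, some lists through 1 or a few genes. The 15 microglia genes were all at least 4-fold lower than in the microglia class, and their sum per cell ran from 0 through 41.6 to 2642 CPM, against 4482 through 35309 to 87163 in that class. Without the 3 cells that stand apart, Csf1r was at 3.41 CPM, against 17.0 with them, and Acta2 at 16.9 against 132. Of 8 border macrophage genes Stab1, a scavenger receptor that some endothelium also makes, was at 335 CPM and Mrc1 at 1.08. Of 16 choroid plexus epithelium genes 5 reached 1 CPM: Enpp2, a lipid-producing enzyme, at 286 CPM in 56 cells, Aqp1 at 108, Ttr at 40.1, Calml4 at 13.6 and Ecrg4 at 1.36, while Folr1, Kcnj13, Otx2 and Clic6 were under 1. The astrocyte list rested on the connexin Gja1, at 352 CPM in 84 cells, with Gfap at 0.234 and Aqp4 at 1.12. The lymphatic list rested on Flt4, with Mmrn1 at 8.10 and Prox1 at 0. Pericyte genes summed to a median of 5.47 CPM, with Rgs5 at 62.5 CPM and Kcnj8 at 0.281. At 10 reads or more over a list, the astrocyte list was present in 64 cells (57.7%), the lymphatic list in 63 (56.8%), the choroid plexus epithelium and border macrophage lists in 56 each (50.5%), the microglia list in 47 (42.3%) and the smooth muscle list in 33 (29.7%). The pericyte list reached that level in 17 cells (15.3%), the erythrocyte list in 11 (9.91%), the ependymal list in 4 (3.60%) and the neuron list in 3 (2.70%). The fibroblast, oligodendrocyte and lymphocyte lists reached it in 0 of 111 cells, which allows a share of up to 2.70% by the rule of 3 counts and 3.27% by the exact Clopper-Pearson limit. Foxj1 and Ccdc153, of ciliated ependymal cells, were read in 32 and 46 cells, all on plates C and D, at 7.16 and 7.37 CPM on plate C, and had no read in microglia-class cells. The part of these markers in the results above was not tested, beyond the values given without the 3 cells.

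Plates C and D, the endothelial-only plates, were set against each other at 2-fold over 7852 genes at 20 CPM or more on either. On plate C 20.4% of genes were higher and on plate D 19.5%. Most of these genes had reads in few cells. Cdr2, with 7 cells, was at 0 on plate C and 124 CPM on plate D, and Gapvd1, with 29 cells, was at 214 and 0.911. Among 329 genes read in at least 80% of cells on both plates 2.13% (7) were 2-fold apart: Cldn5, Cadps2, Gapdh and Slx1b were higher on plate C, and Vim, Cnn3 and Pcdhga12 on plate D (named with their values in view). Cldn5 was at 403 and 151 CPM. The 7 markers were all within 2-fold.

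The 17 cells of plates A and B differed from the 94 of plates C and D in genes that were read on one pair and hardly on the other. Of 4149 genes at 50 CPM or more on plates C and D, 381 (9.18%) were over 50-fold lower on plates A and B, and 60 of 4020 (1.49%) in the other direction. A gene read in few cells can be missed among 17, so these 2 shares cannot be set against each other. Of 406 genes read in at least 80% of cells on plates C and D, 6 were read in under 20% on plates A and B. In 8 of the 381, at least 50% of the cells of plates C and D had a read: B4galt3, Ecm1, Uba7, Hdac5, Per1, Sun2, Ufd1 and Acta2. Without the 3 cells that stand apart, pooled Acta2 fell from 132 to 16.9 CPM. Ufd1, of the ubiquitin pathway, was at 0, 1.41, 704 and 792 CPM on plates A to D and was read in 2 of 17 cells against 91 of 94. Per1, a clock gene, was at 0, 0.943, 340.4 and 307 CPM and was read in 1 of 17 cells against 62 of 94. Pooled microglia-class cells of the same plates A and B had Ufd1 at 91.4 and 127 CPM and Per1 at 84.1 and 74.2. Many of those cells had no read of either gene, and a part of them held most of these levels. Edn1, the endothelin-1 precursor, went the other way, at 99.8, 89.1, 0.316 and 0.342 CPM, with reads in 9 of 17 and 6 of 94 cells, and 1 cell each of plates A and B, at 723 and 978 CPM, held most of it. The plate and any difference of animal or day between plates cannot be told apart. This set of genes was found by looking at the values.

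**Figure D5:**
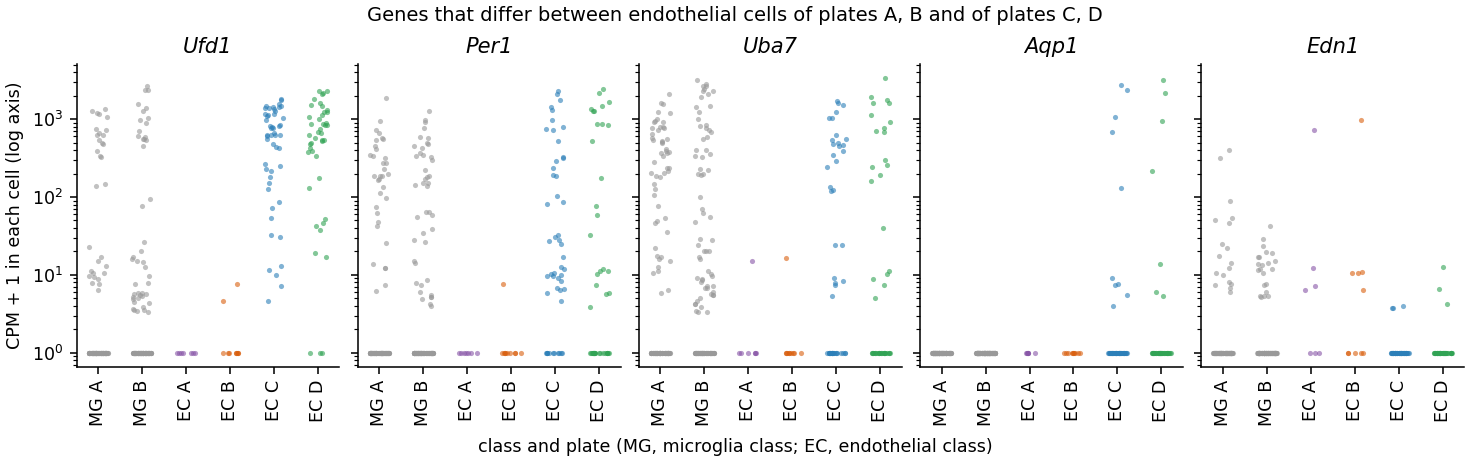
CPM + 1 in each cell (y axis, log scale) of 5 genes, for microglia-class cells (MG) of plates A and B and CP-EC cells (EC) of plates A to D, 1 point per cell. Ufd1, Per1 and Uba7 are at or near 0 in CP-EC cells of plates A and B. Many microglia-class cells of those plates are at or near 0 too, and others lie far higher. Aqp1 appears only on plates C and D, and Edn1 reaches 723 and 978 CPM in 1 CP-EC cell each of plates A and B.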

How the data were processed

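Smart-seq2 libraries of 391 single cells from adult mouse brain were analysed, 111 of type CP-EC and 280 of type MG. The authors deposited 1 table of read counts for 56941 genes and 1 table of cell types. Per the submitters' processing notes, the build was GRCm39 and the tools included Subread 1.4.6-p5, featureCounts and SAMtools 1.16.1, with no order given. The aligner, annotation, strand setting and treatment of duplicate and multiply mapped reads were not given in the sources used here. All columns were used.

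From the counts, CPM was computed per cell and pooled over cells (Python 3.11.15, numpy 2.4.6, pandas 2.3.3, scipy 1.17.1), with exact Poisson and Clopper-Pearson intervals at 95%. Exon lengths for RPKM came from GENCODE, for an older build, GRCm38, and 98.1% of genes tested for variation had one. Components and clusters used 10 components and 15 neighbours (scanpy 1.11.5), with no doublet removal and no filter on cells. Each class is 1 sample, so no test was run. The procedures were tested on simulated counts. Alternatives changed the pseudocount, filters, scaling, thinning, variation measure, thresholds, plates and cells.

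The members and all 43 gene lists were chosen with earlier results of these data known. Named genes are the 7 markers, the 12 highest by RPKM among genes called higher, the 15 most uneven and 10 most even genes, up to 4 highest members of each list with its most uneven member and those below 1 CPM, the 8 largest plate ratios each way, the 3 closest partners of 8 genes, and 6 leading genes on each side of the first 2 components. Mitochondrial, ribosomal protein and predicted genes were left out except in lists. Some genes that the rule takes are not reported here. Other list members that are named, the Fos partners, cells apart and values without them, pairs of genes, plates A and B against C and D, and the bound on reads were added after values were seen.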

Additional observations from a re-analysis of the deposited data

How the results depend on the processing

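Of 39 alternatives of the 4 counts of genes, 27 were within 1.5 times the value given. The 1761 genes at least 4-fold higher ran from 1184 to 2225 under the others but were 831 with a pseudocount of 10 CPM. The share of higher genes among all called was 37.1% pooled and 19.0% and 19.2% within plates A and B, where 782 of 1548 and 875 of 1573 higher genes were shared with the pooled call. The 121 uneven genes were 39 with a filter at 100 CPM, of which 28 were shared, 3 by the variance of log2(CPM + 1), 7 at 3 times the trend and 14 among genes read in 50% of cells or more. The 390 even genes were 124, 90, 190 (at 0.33 times the trend) and 255 under the same settings. The 3134 genes 2-fold apart between plates C and D were 4758 with a filter at 5 CPM, 7 among genes read in 80% of cells or more, and 327 by the median per-cell CPM, of which 33 were shared and 73.1% were higher on plate C, against 51.0% pooled. Median-of-ratios scaling moved the median over all genes by 0.29 between classes and by 0.08 between plates. Of 374 alternatives of single values and correlations, 155 lay close to the value given (within its interval, or within 0.1 for a correlation) and 219 did not. No paired analysis was possible because cells of the classes carry no matching replicate number and no result comes from a test; the classes were compared within plates A and B instead. An upper bound on reads was seen for short, abundant genes and its part in their levels was not tested, and 7 and 10 cells limit the values of plates A and B.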
